A study of Mus musculus with 6 samples.

Results

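The MAP kinase cascade is a relay of protein kinases, and its genes are described here as rows of a two-colour array table from RAW 264.7 cells. The members were all features whose platform gene symbol began with Mapk, Map2k, Map3k, Map4k or Mapkapk followed by a digit, with the exception of Map3k8. The rule itself reads names and no measured value, but it was chosen with earlier results of these data known. It gave 70 of 16281 features, which stand for 35 genes. RAW 264.7 is a mouse macrophage line, transformed by Abelson murine leukaemia virus, and the results are therefore those of 1 cell line. Both groups were cultured for 8 h. The untreated cells received nothing that the labels name, and the treated cells received lipopolysaccharide (LPS) at 100 ng/ml with LPS-binding protein at 100 pM. LPS is a component of the outer membrane of Gram-negative bacteria, and LPS-binding protein carries it to the receptor complex of Toll-like receptor 4. Total RNA of treated and untreated cells was hybridised together on 6 arrays. In each of 3 numbered sets, 1 array carried treated RNA in the dye Cy5 and 1 carried it in Cy3.

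The deposited values were log2 ratios of the 2 dyes. They are given here as treated over untreated, after the sign was turned on the 3 arrays whose treated RNA carried Cy3. The numerator of the ratio is not stated in the table. The reading used is Cy5 over Cy3, since the labels mark Cy3 as control and Cy5 as test, so the direction of every rise and fall below is likely rather than stated, and all would exchange under the opposite reading. An exact 0 was treated as not measured. After that step, array pairs with the same dye orientation correlated at r = 0.74 to 0.906 over 12798 features, and pairs that differed in orientation at r = 0.613 to 0.828. Those correlations run across features, which are not independent replicates. Ratios hold no expression level, so the macrophage identity of the cells could not be checked by level. Of 7 macrophage markers 6 were on the array, and their 6 features had log2 ratios from -0.19 to 1.51, with 3 higher and 1 lower. The 13 features tested for markers of T cells, B cells, fibroblasts and epithelium had log2 ratios from -0.26 to 0.23, with 1 higher and 1 lower.

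In the cascade, a MAP kinase kinase kinase (MAP3K) phosphorylates a MAP kinase kinase (MAP2K), which phosphorylates a MAP kinase (MAPK) on a threonine and a tyrosine of its activation loop. MAP4K enzymes act above the MAP3K tier, and MAPK-activated protein kinases (MAPKAPK) are substrates of the MAP kinases. Toll-like receptor 4 reaches the cascade mainly through the MAP3K TAK1, and in macrophages the ERK, JNK and p38 branches control transcription, stability and translation of cytokine mRNAs. The kinases are switched by phosphorylation. The arrays measured only their mRNA, and in RNA from a whole culture fewer cells that express a gene and less RNA per cell cannot be told apart.

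Of the 70 features, 4 were listed at 0 on every array and another 7 had too few values for a test, which left 59 tested features covering all 35 genes. The test was limma's moderated test of the set means against 0, where a set mean needed both of its arrays and a feature needed at least 2 set means, with Benjamini-Hochberg adjustment over 14343 features and a threshold of 0.05. Whether each set came from its own culture is not stated in the labels. The p-values therefore measure only the spread from set to set, and this spread may be technical. Of the 59 tested cascade features 25 passed, 12 higher and 13 lower in treated cells. That is 42.4% of them, against 32.7% of all features tested. Several features of the same gene are counted here. With the features averaged into genes, 12 of 35 cascade genes passed (34.3%), near the 33.9% of all 10088 genes, so the larger share held for features and not for genes. By feature, rises were 20.3% of the tested members against 17.1% of all features, and falls were 22% against 15.6%. Without set 3 the count of falls was 7 and that of rises 10 (12.7% and 18.2% of 55 tested members), while falls and rises were 9.93% and 12.1% of all 13444 features tested in that setting. No set test was made of these shares. The median log2 ratio of the members was 0.0075 and that of all features -0.0058. Over all tested members the median size of the log2 ratio was 0.1203, and over all features tested it was 0.1184. The 25 features had a median size of 0.33 on the log2 scale, against 0.37 for all features that passed, and the largest was the 1.73-fold rise of Map2k1. Of all 14343 features tested 512 passed with a change of over 2-fold, that is a log2 size over 1. Among the 59 tested members 0 did. No cascade member passed limma's test against a change of 1.5-fold, in which 2 had an unadjusted p under 0.05. In that test 649 of the 14343 features passed. Large changes were thus rare among all features too, and no test compared these shares with those of the members. Of 53 members measured on 6 arrays, 25 had the same sign on all of them (47.2%), against 34.8% of all such features. Of the 25 features that passed, Mapk9 and Mapk13 had arrays on both sides of 0 and are described with the MAPK tier.

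**Figure D1:**
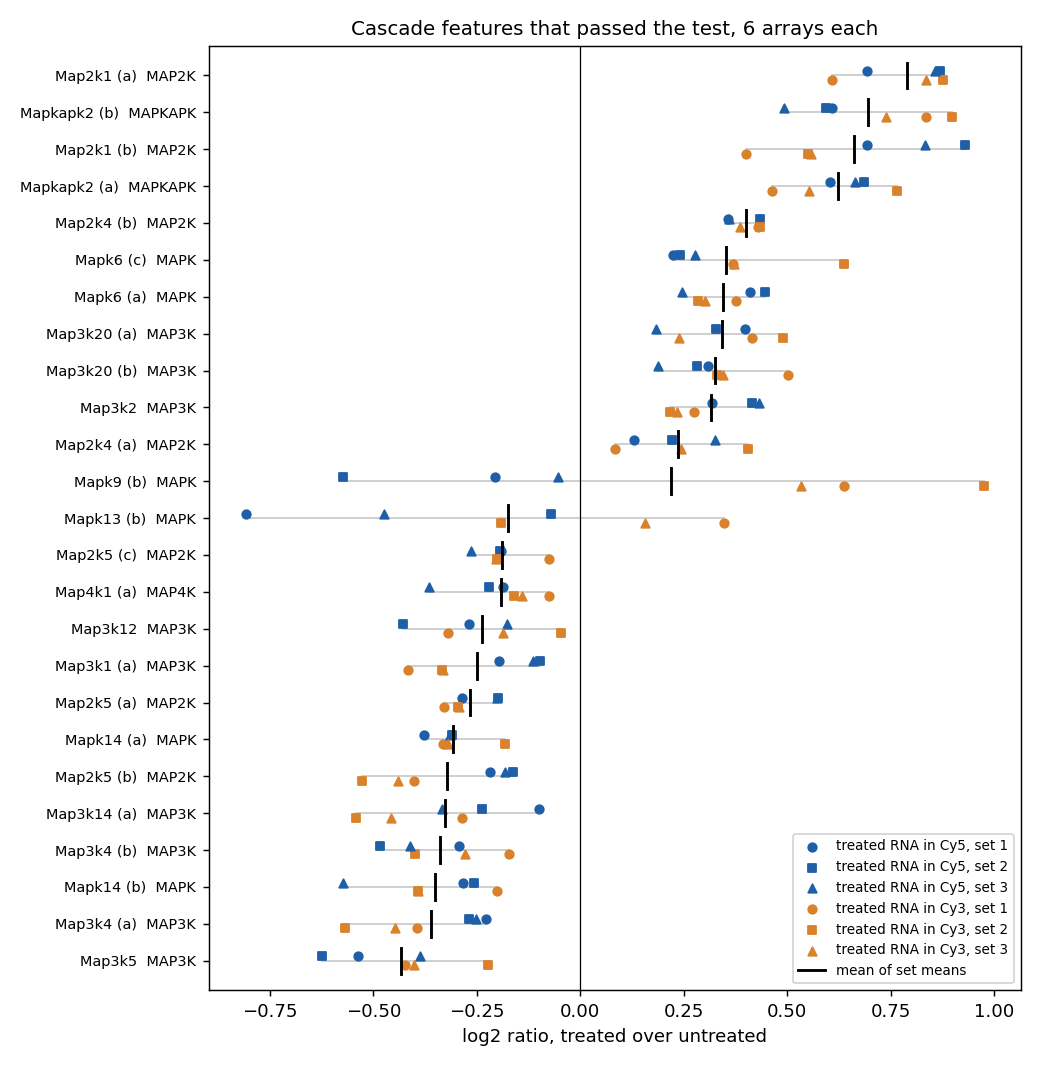
The horizontal axis gives the log2 ratio of treated over untreated cells on each of the 6 arrays for the 25 cascade features that passed limma's test, with blue for treated RNA in Cy5, orange for treated RNA in Cy3, marker shape for the set, a grey line for the range over arrays and a black bar for the mean of the set means. Map2k1 and Mapkapk2 are at the top with means of 0.62 to 0.79, Map3k5 is at the bottom at -0.43, and only Mapk9 (b) and Mapk13 (b) have arrays on both sides of 0.

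The 250 bases before the RefSeq start site were read for 3 member genes, to show the sequence before the start of each. These were Map2k1 and Mapkapk2, with the largest rises among the members, and Map3k5, with the largest fall. They come from RefSeq on GRCm38.p6, at chr9:64253606-64253855 (minus strand) for Map2k1, chr1:131097844-131098093 (minus strand) for Mapkapk2 and chr10:19934276-19934525 (plus strand) for Map3k5. Capitals mark GGGCGG, the GC box bound by Sp and KLF factors, on either strand.
Map2k1: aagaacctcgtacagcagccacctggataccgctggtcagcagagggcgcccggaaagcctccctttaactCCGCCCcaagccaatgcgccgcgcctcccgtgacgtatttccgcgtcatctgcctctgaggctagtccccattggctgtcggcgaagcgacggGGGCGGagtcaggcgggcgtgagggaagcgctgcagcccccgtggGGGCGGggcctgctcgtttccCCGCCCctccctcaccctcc
Mapkapk2: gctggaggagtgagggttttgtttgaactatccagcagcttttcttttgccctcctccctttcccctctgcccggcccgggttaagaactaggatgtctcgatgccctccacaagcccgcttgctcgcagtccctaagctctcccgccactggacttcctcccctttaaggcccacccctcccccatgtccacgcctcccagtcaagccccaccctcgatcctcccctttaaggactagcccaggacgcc
Map3k5: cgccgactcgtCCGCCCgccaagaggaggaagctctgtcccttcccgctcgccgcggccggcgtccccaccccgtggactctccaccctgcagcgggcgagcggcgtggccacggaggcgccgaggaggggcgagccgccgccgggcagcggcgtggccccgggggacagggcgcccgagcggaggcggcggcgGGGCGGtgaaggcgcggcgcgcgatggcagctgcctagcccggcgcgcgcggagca
Map2k1 holds 4 GC boxes in this window, Map3k5 holds 2 and Mapkapk2 holds 0. The letters GGGCGG occur in 32.7% of all 32851 RefSeq promoter windows of this length. RefSeq windows were found for 31 of the 35 member genes, 42 windows in all. Among genes with a feature that rose, 3 of 6 had the GC box in a window (Map2k1, Mapk6 and Mapk9), among genes with a feature that fell 8 of 9, and among genes with no feature that passed 11 of 16. By window, as the 32.7% is counted, these were 4 of 9, 9 of 12 and 12 of 21, and no test compared them. The AP-1 motif TGANTCA was in no window of those 15 genes and in 6.75% of all windows. A kappaB consensus of 10 letters, which occurs in 7.25% of all windows, was found among them in Map4k1 alone. Both strands were searched for every motif. A match is a description of letters and not of a bound site.

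The members were then counted by tier, beside the 17.1% of rises and 15.6% of falls among all features tested. In the MAPKAPK tier 2 of 3 tested features rose (66.7%). The tier median was 0.62, with medians of 0.53, 0.73 and 0.61 in sets 1, 2 and 3. Of the 3 features 2 are of Mapkapk2, and the median was 0.37 with gene means and 0.36 with zeros kept as values. The MAP2K tier had 4 of 12 features that rose (33.3%) and 3 that fell (25%), at a median of 0.049. The MAP3K tier had 3 of 16 that rose (18.8%) and 6 that fell (37.5%). Its median was 0.0087, and with 1 orientation alone it was -0.052 (treated RNA in Cy5) or -0.066 (treated RNA in Cy3), so it has no settled sign. In the MAPK tier 3 of 17 features rose and 3 fell (17.6% each), near the shares over all features. The tier median was -0.071, and it was 0.034 when only the Cy3 orientation was used. Of 5 MAP4K features 1 fell (20%), at a tier median of -0.097. Another 6 tested features belong to genes that are named after a cascade kinase but encode binding partners. None of the 6 passed in limma, 0 had an unadjusted p under 0.05, and 0 passed with the 6 arrays as separate replicates. Features of a tier include several for the same gene and are not replicates of the treatment, so the tiers were compared by description only.

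**Figure D2:**
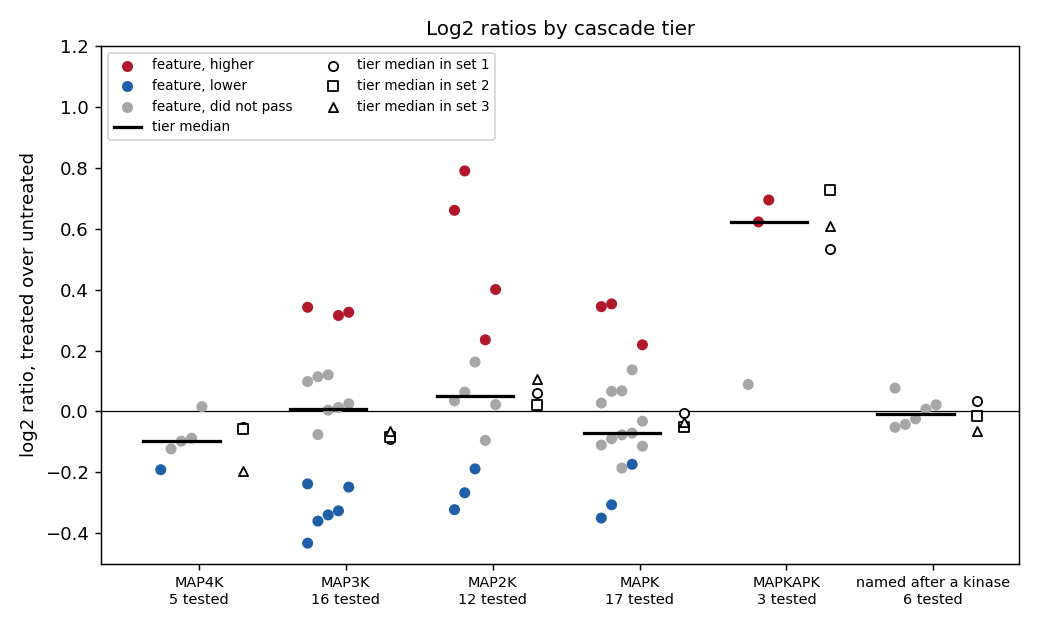
The vertical axis gives the log2 ratio (mean of set means) of each tested cascade feature by tier, coloured by its call, with the tier median as a black line and the tier median in each set as an open symbol. The MAPKAPK median of 0.62 stands above those of the other tiers, which lie from -0.097 to 0.049, while the MAP3K and MAP2K tiers hold rises and falls side by side.

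Values on single arrays are listed below in the order of sets 1, 2 and 3 with treated RNA in Cy5, followed by sets 1, 2 and 3 with treated RNA in Cy3. Means are those of the set means, with the SD over sets (n = 3 sets unless another n is given). Where a gene has several tested features they are lettered a, b and c, and adjusted p-values are limma's.

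At the top of the cascade, MAP4K genes encode kinases that link surface receptors and small GTPases to the MAP3K tier. Map4k1 (HPK1), a kinase of blood cells that also restrains antigen receptor signalling, had 3 features for the same sequence record. Its feature a read -0.19, -0.22, -0.37, -0.075, -0.16 and -0.14, lower on 6 of 6 arrays, with a mean of -0.19 ± 0.061 (adjusted p = 0.0315, and 0.239 without set 3). Features b and c had means of -0.088 ± 0.098 (adjusted p = 0.296) and -0.12 ± 0.075 (adjusted p = 0.132), the latter with 6 of 6 arrays below 0. Only a passed, and no test compared the 3 features with each other. Map4k4 (HGK) had a mean of -0.097 ± 0.048 (adjusted p = 0.19). Map4k5 had one of 0.016 ± 0.045 (adjusted p = 0.842), with its 3 Cy5 arrays below 0 and its 3 Cy3 arrays above 0.

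Among the members, which leave out Map3k8, the largest fall was that of Map3k5, in the MAP3K tier. It encodes ASK1, which responds to oxidative and endoplasmic reticulum stress and feeds the JNK and p38 branches. Its tested feature read -0.54, -0.62, -0.39, -0.42, -0.22 and -0.40. All 6 arrays were below 0, at a mean of -0.43 ± 0.044, a 1.35-fold fall (adjusted p = 0.00109). A second feature of Map3k5 had a single measured value, 2.32 on the Cy3 array of set 1, and was not tested. Map3k4 (MEKK4), which also acts on JNK and p38, fell on both of its features. Feature a read -0.23, -0.27, -0.25, -0.40, -0.57 and -0.45 (mean -0.36 ± 0.054, adjusted p = 0.00251). Feature b read -0.29, -0.48, -0.41, -0.17, -0.40 and -0.28 (mean -0.34 ± 0.10, adjusted p = 0.00586). No array of either feature was above 0.

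Another 3 MAP3K genes had a feature that fell, and each lost the threshold without set 3. Map3k14 encodes NIK, the kinase that starts the non-canonical NF-kappaB pathway. Its feature a read -0.10, -0.24, -0.33, -0.29, -0.54 and -0.46, a mean of -0.33 ± 0.12 (adjusted p = 0.00805, and 0.0548 without set 3). Its feature b had a mean of -0.076 ± 0.083 (adjusted p = 0.343) with arrays on both sides of 0. Map3k1 (MEKK1), an activator of the JNK branch that also carries a ubiquitin ligase domain, had 2 features for the same sequence record that did not match. Feature a read -0.20, -0.096, -0.11, -0.42, -0.33 and -0.33 (mean -0.25 ± 0.051, adjusted p = 0.0108, and 0.0637 without set 3). Feature b scattered from -0.66 to 0.51 at a mean of 0.0255 ± 0.18 (adjusted p = 0.839). The mean of both features was -0.11, with an adjusted p of 0.186 when genes were the unit of the test. Map3k12 (DLK), known for its role in injured axons, read -0.27, -0.43, -0.18, -0.32, -0.047 and -0.19 (mean -0.24 ± 0.056, adjusted p = 0.0133, and 0.0575 without set 3).

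Both Map3k20 features and the tested Map3k2 feature rose. Map3k20 encodes ZAK, a mixed-lineage kinase that senses stalled and colliding ribosomes. Feature a read 0.40, 0.33, 0.18, 0.41, 0.49 and 0.24 (mean 0.34 ± 0.11, adjusted p = 0.00651). Feature b read 0.31, 0.28, 0.19, 0.50, 0.33 and 0.34 (mean 0.33 ± 0.071, adjusted p = 0.00452). Every array was above 0 in both, and set 3 gave the lowest value of each orientation except on the Cy3 arrays of feature b. Map3k2 (MEKK2), which can activate MEK5 and the JNK branch, read 0.32, 0.41, 0.43, 0.28, 0.22 and 0.23 (mean 0.32 ± 0.018, adjusted p = 0.00335). Its second feature had 1 measured value, 1.56, and was not tested.

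The remaining MAP3K genes did not pass. Map3k7 encodes TAK1, a MAP3K that Toll-like receptor 4 uses. It had 1 feature, with values of -0.24, -0.0076, 0.038, 0.38 and 0.23 on the 5 arrays that measured it. The 2 complete sets gave a mean of 0.0043 ± 0.15 (n = 2 sets, adjusted p = 0.978). Map3k3 (MEKK3) had means of 0.098 ± 0.045 and 0.11 ± 0.099 (adjusted p = 0.185 and 0.187). Map3k11 (MLK3) had a mean of 0.12 ± 0.16 (adjusted p = 0.252) and Map3k6 (ASK2) one of 0.013 ± 0.35 (adjusted p = 0.954), the widest spread between sets of these genes.

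In the MAP2K tier, Map2k1 had the largest rise of any member gene. It encodes MEK1, which phosphorylates the ERK kinases. Feature a read 0.69, 0.87, 0.86, 0.61, 0.88 and 0.83, with a mean of 0.79 ± 0.12, or 1.73-fold (adjusted p = 0.000242). Feature b read 0.69, 0.93, 0.83, 0.40, 0.55 and 0.56, with a mean of 0.66 ± 0.10, or 1.58-fold (adjusted p = 0.000381). On both features every array was at 0.40 or higher, and set 1 had the lowest value of each orientation. Map2k2, the gene of the close paralogue MEK2, had means of 0.16 ± 0.082 (adjusted p = 0.0661) and 0.035 ± 0.051 (adjusted p = 0.642). The difference between both paralogues was not tested.

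Map2k4 encodes MKK4, which phosphorylates JNK and, in some cells, p38. Its 2 features, for the same sequence record, both rose. Feature b read 0.36, 0.43, 0.36, 0.43, 0.43 and 0.39 (mean 0.40 ± 0.031, adjusted p = 0.00135), the narrowest range over arrays among the rises. Feature a read 0.13, 0.22, 0.33, 0.085, 0.40 and 0.24 (mean 0.24 ± 0.11, adjusted p = 0.0267, and 0.156 without set 3). Map2k5 encodes MEK5, the activator of ERK5, and fell on all 3 of its features. Feature a read -0.29, -0.20, -0.20, -0.33, -0.29 and -0.29 (mean -0.27 ± 0.035, adjusted p = 0.00715). Feature b read -0.22, -0.16, -0.18, -0.40, -0.53 and -0.44 (mean -0.32 ± 0.020, adjusted p = 0.00308). All 3 Cy3 arrays of b lay below its 3 Cy5 arrays. Feature c read -0.19, -0.19, -0.26, -0.076, -0.20 and -0.20 (mean -0.19 ± 0.050, adjusted p = 0.0301, and 0.222 without set 3). No array of any Map2k5 feature was above 0.

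The activators of p38 among the MAP2K genes did not pass. Map2k3 (MKK3) had means of 0.023 ± 0.075 and 0.064 ± 0.025 (adjusted p = 0.789 and 0.36). Map2k6 (MKK6) had 1 tested feature, with 0.27 and 0.48 on the 2 Cy5 arrays that measured it and -0.63, -0.50 and -0.58 on the Cy3 arrays. Its set means gave -0.095 ± 0.12 (n = 2 sets, adjusted p = 0.388). The orientations of this feature differed from each other by 0.94 (adjusted p = 0.028 in limma with a dye term).

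Within the MAPK tier the rises were on Mapk6 and Mapk9 and the falls on Mapk14 and Mapk13. Mapk14 encodes p38 alpha, the main p38 kinase of macrophages. Feature a read -0.38, -0.31, -0.32, -0.33, -0.18 and -0.32 (mean -0.31 ± 0.055, adjusted p = 0.00487). Feature b read -0.28, -0.26, -0.57, -0.20, -0.39 and -0.39 (mean -0.35 ± 0.12, adjusted p = 0.00673). All 12 values were below 0. A further Mapk14 feature had values on 2 arrays, 2.03 and 1.68 on the Cy3 arrays of sets 1 and 2, opposite in sign to the tested features, and was not tested.

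Mapk6 encodes ERK3, an atypical MAP kinase whose activation loop lacks the tyrosine of the usual motif and whose level is set by rapid turnover of the protein. Feature a read 0.41, 0.45, 0.25, 0.38, 0.29 and 0.30 (mean 0.34 ± 0.063, adjusted p = 0.0033). Feature c read 0.22, 0.24, 0.28, 0.37, 0.64 and 0.37 (mean 0.35 ± 0.076, adjusted p = 0.00344). These features did not overlap 0 on any array. Feature b scattered from -0.23 to 0.37 at a mean of 0.066 ± 0.24 (adjusted p = 0.638).

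The JNK genes Mapk8, Mapk9 and Mapk10 each had a feature whose ratio differed between the dye orientations. Mapk9 (JNK2) feature b read -0.21, -0.57 and -0.054 with treated RNA in Cy5 and 0.64, 0.97 and 0.53 with treated RNA in Cy3. Its set means averaged 0.22 ± 0.020 (adjusted p = 0.0143), so it counts among the rises, although all 3 Cy5 arrays were below 0. Its adjusted p was 0.124 without set 3 and 0.104 with the 6 arrays as separate replicates, and the orientations differed by -0.99 (Cy5 minus Cy3, adjusted p = 0.0406). Feature a of Mapk9 had a mean of -0.11 ± 0.046 (adjusted p = 0.144). Mapk8 (JNK1) feature b read -2.24, -2.15 and -2.03 with treated RNA in Cy5 and 1.82 and 1.82 with treated RNA in Cy3, and was not measured on the Cy3 array of set 3. The orientations differed by -3.97 (adjusted p = 0.000329) and the 2 complete sets averaged -0.19 ± 0.035 (adjusted p = 0.0842). Feature a of Mapk8 had a mean of -0.11 ± 0.27 (adjusted p = 0.449). Mapk10 (JNK3), a kinase known mainly from neurons, had means of 0.068 ± 0.083 and -0.032 ± 0.051 (adjusted p = 0.395 and 0.673). Over all features the dye orientations differed in 4.54%, and among the tested members in 5 of 59 (8.47%), namely 1 feature each of Mapk8, Mapk9, Mapk10, Map3k3 and Map2k6.

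**Figure D3:**
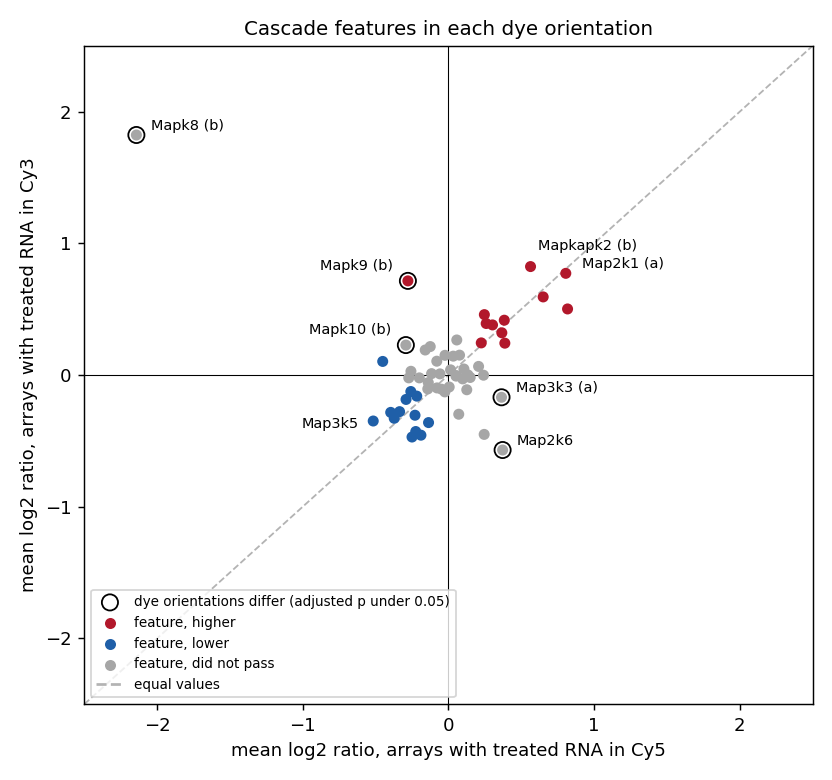
Each point is a tested cascade feature, with its mean log2 ratio over the Cy5 orientation on the horizontal axis and over the Cy3 orientation on the vertical axis, coloured by its call. Points on the dashed line gave equal values in both orientations, and the 5 ringed features, among them Mapk8 (b) at -2.14 and 1.82, differed between them.

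Other MAPK genes stood near 0 or rested on few values. Mapk13 (p38 delta) feature b had a mean of -0.17 ± 0.051 (adjusted p = 0.0405) and counts among the falls. It read -0.81, -0.071 and -0.47 with treated RNA in Cy5 and 0.35, -0.19 and 0.16 with treated RNA in Cy3, on both sides of 0, and its adjusted p was 0.189 without set 3 and 0.298 with the 6 arrays as separate replicates. Feature a of Mapk13 had a mean of -0.071 ± 0.16 (n = 2 sets, adjusted p = 0.553). Mapk11 (p38 beta) had a mean of 0.14 ± 0.070 (adjusted p = 0.0978). Mapk12 (p38 gamma) had one of -0.090 ± 0.00051 from 2 sets (adjusted p = 0.342). Mapk7, which encodes ERK5, the substrate of MEK5, had means of 0.028 ± 0.034 and -0.077 ± 0.11 (adjusted p = 0.71 and 0.376).

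The MAPKAPK tier rested on 2 genes. Mapkapk2 encodes MK2, a substrate of p38 alpha that acts on RNA-binding proteins such as tristetraprolin and so on the stability of cytokine mRNAs. Both of its features, for the same sequence record, rose. Feature a read 0.60, 0.69, 0.66, 0.46, 0.77 and 0.55, a mean of 0.62 ± 0.097, or 1.54-fold (adjusted p = 0.000458). Feature b read 0.61, 0.59, 0.49, 0.83, 0.90 and 0.74, a mean of 0.69 ± 0.068, or 1.62-fold (adjusted p = 0.000209). All 12 values were at 0.46 or higher, and those of b were higher with treated RNA in Cy3 than in Cy5 in every set. Mapkapk5 (MK5), which binds ERK3 and ERK4, had a mean of 0.089 ± 0.061 (adjusted p = 0.241), with 6 of 6 arrays above 0. By branch, 3 of 5 tested features of the ERK5 genes Map2k5 and Mapk7 fell (60%) and 0 rose, at a median of -0.19. Among all features tested 15.6% fell and 17.1% rose. Of 9 tested features of the p38 kinases and their activators Map2k3 and Map2k6, 3 fell (33.3%) and 0 rose. Their median was -0.090, and it was 0.053 with treated RNA in Cy5 and -0.28 with it in Cy3. The falls were both Mapk14 features and Mapk13 feature b, whose call was lost or reversed under 10 of 15 alternatives. Both features of the p38 substrate gene Mapkapk2 rose. Of 8 tested features of the JNK genes and Map2k4, 3 rose (37.5%) and 0 fell. Their median was 0.018, and it was -0.23 with treated RNA in Cy5 and 0.24 with it in Cy3.

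The binding partners include the JNK-interacting scaffold proteins JIP1, JIP2 and JIP3. Mapk8ip1 had means of 0.022 ± 0.19 (n = 2 sets) and -0.024 ± 0.12, Mapk8ip2 one of 0.077 ± 0.17, and Mapk8ip3 means of -0.052 ± 0.13 and -0.042 ± 0.085. Mapk1ip1 had a mean of 0.0075 ± 0.036, with its Cy5 arrays from 0.12 to 0.13 and its Cy3 arrays from -0.15 to -0.034. Adjusted p-values of these 6 features ran from 0.472 to 0.928.

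Features of one gene were compared for the 21 genes with several tested features. In 7 of them all tested features passed in the same direction, namely Map2k1, Map2k4, Map3k20 and Mapkapk2 as rises and Map2k5, Map3k4 and Mapk14 as falls. In another 6 genes, Map3k1, Map3k14, Map4k1, Mapk6, Mapk9 and Mapk13, some features passed and others did not. In the remaining 8 genes no feature passed, and no gene had features that passed in opposite directions. The median distance between the lowest and the highest feature of a gene was 0.10 and the largest 0.33, for Mapk9. Of 8 sequence records that stood behind several tested features, 3 gave a mixed outcome (Map3k1, Map4k1 and Mapk13). Of the 12 genes that passed when features were averaged, 6 were higher and 6 lower, 17.1% each, against 17.2% and 16.7% of all genes.

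**Figure D4:**
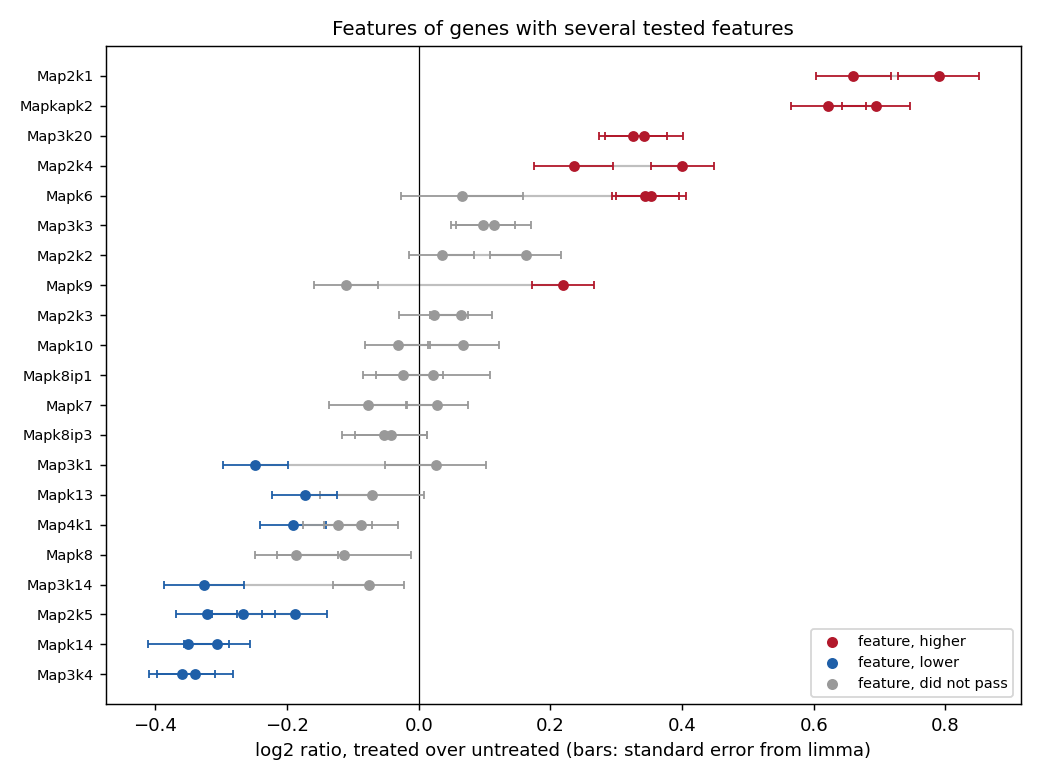
The horizontal axis gives the log2 ratio (mean of set means, bars of 1 standard error from limma) of each feature of the 21 genes with several tested features, coloured by its call. The features of Map2k1, Mapkapk2, Map3k20 and Map2k4 all passed to the right of 0 and those of Map2k5, Mapk14 and Map3k4 to the left, whereas Mapk6, Mapk9 and Map3k1 have features that lie apart by 0.29, 0.33 and 0.27.

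Other genes of the pathway were taken from 6 lists and counted by feature, beside the 17.1% of rises and 15.6% of falls among all features. The lists were written with earlier results of these data known, so their counts are description only. Of 24 features for transcription factor substrates such as the AP-1 and Ets proteins, 11 rose and 4 fell, at a median log2 ratio of 0.15. In that list the proto-oncogene Myc rose by 3.66 ± 0.46 (adjusted p = 2.46e-05), and Elk3, a ternary complex factor, had a log2 ratio of -0.95 ± 0.21 (adjusted p = 0.000413). Phosphatases and inhibitors of MAP kinases had 8 of 31 features that rose and 7 that fell, at a median of 0.050. Dusp2, a nuclear phosphatase of ERK and p38, rose by 2.48 ± 0.052 (adjusted p = 1.9e-06) and Dusp14 stood at -1.27 ± 0.26 (adjusted p = 0.000249). Of 29 features for small GTPases and adaptors upstream of the cascade, 8 rose and 4 fell, at a median of 0.068. Gadd45b, which binds MEKK4 and MKK7, rose by 1.87 ± 0.12 (adjusted p = 8.66e-06), while Tab1, the partner of TAK1, stood at -0.62 ± 0.037 (adjusted p = 0.000232).

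Kinases downstream of the cascade or atypical in it had 3 of 9 features that rose and 4 that fell. Mknk1, which phosphorylates the translation factor eIF4E, rose by 0.25 ± 0.073 (adjusted p = 0.0124), and the mitotic kinase gene Pbk stood at -0.87 ± 0.16 (adjusted p = 0.000305). Scaffolds and anchors had 4 of 14 that rose and 4 that fell. Pea15a, which holds ERK in the cytoplasm, stood at 0.44 ± 0.13 (adjusted p = 0.0032) and Paxip1 at -0.49 ± 0.082 (adjusted p = 0.00101). The list and its counts hold Paxip1 although it is not an established scaffold of MAP kinases. Among kinases that act at the MAP3K or MAP4K level under other names, 2 of 17 features rose and 3 fell. The largest were Stk4 (MST1) at 0.27 ± 0.076 (adjusted p = 0.0105) and Stk24 (MST3) at -0.38 ± 0.068 (adjusted p = 0.00223). Myc, Elk3, Dusp2, Dusp14, Gadd45b and Pbk had changes larger in size than the 0.79 of Map2k1, and the differences between lists were not tested.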

How the data were processed

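Log2 ratios of 6 two-colour arrays were used, as deposited by the authors. The largest value was log2 of 100, which gave the log base. The scanner, the background correction and any normalization between dyes are not stated in the sources at hand. Each array's median was 0 as deposited, with exact zeros included. Without them, and after the sign was turned, the medians ran from -0.021 to 0.0087. Arrays had 1328 to 2262 exact zeros, which were treated as not measured. No intensities were used here. Precision rests on 3 set means per feature (2 for 6 members), which the labels do not show to be independent cultures. Of 16281 features 13738 had 1 gene symbol, 52 several and 2491 none, and 13694 matched a RefSeq gene of GRCm38.p6 by gene ID, which changed 0 symbols. The sign was turned on the 3 arrays whose Cy3 channel held treated RNA. Both arrays of a set were averaged, so each set was treated as 1 replicate and a dye effect cancels. Set means were tested per feature with lmFit and eBayes (limma 3.58.1, R 4.3.3). Dye differences came from limma on the 6 arrays with a dye term. Members, lists and tests were chosen with earlier results of these data known. Every member gene is named, and every-array values are given for members with an adjusted p under 0.05 or with a mean of at least 0.5 in size and all 6 arrays on one side. From each pathway list the features with the largest rise and fall that passed are named. On simulated set means for 14343 features, 78% of features changed by 0.5 (log2), 4% of those changed by 0.25, and 100% of those changed by 1 or 2 were called, with 3 false calls. Only a small part of the simulated features was changed, whereas 32.7% of features passed in the data. The Benjamini-Hochberg threshold was therefore stricter in the simulation, and its rates do not carry over to the data. Alternatives covered zeros, gene means, replicates, normalization, orientation and the filter. All 6 value columns matched a sample, and 0 were left unused. The line is written as 264.7 at 42 places of the labels and as 264.4 at 6; the first spelling is used.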

Additional observations from a re-analysis of the deposited data

Results flagged for a closer look

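For 3 members the ratios had opposite signs in the 2 dye orientations, with all 3 arrays of each on its own side, and the orientations differed in limma's test with a dye term. Differences are Cy5 minus Cy3. Map3k3 feature a differed by 0.53 (means 0.37 and -0.17, adjusted p = 0.0294), Mapk10 feature b by -0.52 (means -0.29 and 0.23, adjusted p = 0.0448) and Mapk9 feature b by -0.99 (means -0.28 and 0.72, adjusted p = 0.0406). In all, 5 of 53 members measured on 6 arrays had opposite signs in this way, against 10.7% of all such features.

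For 6 of the 59 tested members, 1 array lay far from the others by Dixon's gap test, which chance alone gives for about 1 in 20 groups. These were 10.2% of the members, against 5.81% of all features tested. In 5 of the 6 it was the Cy3 array of set 2, as in 61.2% of all such features, and that array had the widest spread of ratios (median absolute deviation 0.271, against 0.188 to 0.23 on the others). The values there were -0.23 for Map2k2 (others 0.05 to 0.19), 0.77 for Map3k6 (others -0.30 to 0.07), 0.30 for Mapk8ip3 (others -0.20 to -0.07), 0.64 for Mapk6 feature c (others 0.22 to 0.37) and -0.18 for Mapk14 feature a (others -0.38 to -0.31). For Mapk11 the Cy5 array of set 1 read 0.44, against -0.01 to 0.12 on the others. Mapk6 feature c and Mapk14 feature a passed limma's test, and both passed also without set 2.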

How the results depend on the processing

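Of the 25 features that passed, 13 passed in the same direction under all 14 alternatives other than the test against 1.5-fold, under which the members gave 0, with 0 higher and 0 lower, and all features 649. With gene means 12 of 35 members passed (6 higher, 6 lower), 34.3% against 33.9% of all genes. Leaving out 1 set gave 2956 to 4822 of all features (4690 as reported), 17 to 27 members, 10 to 13 rises and 7 to 14 falls, the lowest without set 3. Mapk9 feature b was -0.28 (adjusted p = 0.132) with treated RNA in Cy5 alone, and Mapk13 feature b was 0.10 (adjusted p = 0.584) with it in Cy3 alone. The MAP3K median was 0.046 with zeros kept, -0.052 and -0.066 with Cy5 and Cy3 alone, and -0.044 to 0.029 without 1 set. The MAPK median was -0.043 with zeros kept, -0.025 with gene means, -0.029 after quantile normalization, -0.0465 and 0.034 with Cy5 and Cy3 alone, -0.0022 over features measured on 6 arrays, and -0.044 to -0.0058 without 1 set. The MAPKAPK median was 0.36 with zeros kept and 0.37 with gene means. The cause of these changes was not tested. Deviations of same-numbered arrays correlated at 0.256, 0.212 and 0.0999 as deposited, and those of the other pairs of opposite orientation at -0.297 to 0.112. A positive value as deposited means opposite deviations after the sign is turned, so a set mean cancels part of the spread between its arrays. The SD over sets can thus be narrower than the spread over arrays, and the numbers are not shown to pair cultures. With the set number as replicate block the fit is that of the set means, with 4690 features and 25 members, and without a block 5218 features and 24 members passed.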

Other observations

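Of the 11 member features without a test, 7 had a value on 1 or 2 arrays. In the ratios as deposited, Cy5 over Cy3, 8 of these 9 values were negative, with a median of -1.04. Of the 2431 values of all 969 untested features with a value, 42.5% were negative, and some of those features had values on more than 2 arrays. The member values stood at -2.03 and -1.68 for 1 feature of Mapk14, -2.32 for Map3k5, -1.56 for Map3k2, -1.04 and 0.43 for 2 features of Map2k6, -0.56 and -0.31 for 1 feature of Mapk12 and -0.54 for Mapkapk5. Tested features of Mapk14 and Map3k5 gave ratios of the opposite sign after turning, and the largest of them was -0.62. The Mapk8 feature with the largest dye difference also read negative on each array that measured it, from -2.24 to -1.82 as deposited.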
